A study of Mus musculus with 16 samples.

Results

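The antioxidant and Nrf2 target genes were examined in femoral cortical bone of mice after hindlimb unloading (HLU). The group was fixed by name and holds 10 genes: Nfe2l2, Hmox1, Nqo1, Gclc, Gclm, Txnrd1, Srxn1, Sod2, Sod3 and Cat. For each mouse 36829 features were listed. A row under its own symbol was found for 9 of the 10, all 9 passed the filter on low values, and Sod2, the mitochondrial superoxide dismutase, was not analysed here. None of the 9 differed between HLU and control mice after adjustment over all features. Gclm, the modifier subunit of the enzyme that starts glutathione synthesis, had the lowest HLU to control ratio, at 0.702-fold, and was the only member past the unadjusted threshold. Across mice within the groups the members split into sets that moved together: Nfe2l2, Gclc, Gclm and Cat in one, and Nqo1, Txnrd1 and Srxn1 in another that rested on 1 control mouse. Sod3 ran opposite to the first. All genes of the first set also followed the proliferation genes across mice (r 0.79 to 0.96), and shared regulation was not tested.

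All 16 animals were female C57Bl/6 mice aged 11 weeks, and no transgene or drug treatment is named for either group. The 8 HLU mice were suspended by the tail for 7 days so that only the forelimbs carried weight, after isoflurane anesthesia used to fit the harness, whereas the 8 control mice bore weight normally. The femoral shaft was freed of its ends and flushed of marrow before RNA extraction, and each mouse gave 1 library. Such RNA comes from every cell left in the shaft, so fewer cells of a type and less RNA per cell cannot be told apart.

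Nrf2, the protein encoded by Nfe2l2, is a transcription factor that Keap1 holds in the cytoplasm and directs to degradation. Oxidants and electrophiles release it, and together with small Maf proteins it binds the antioxidant response element in the promoters of genes for glutathione synthesis, thioredoxin recycling, quinone reduction and heme breakdown. Because Nrf2 is controlled mainly at the level of the protein, the abundance of the Nfe2l2 transcript need not follow its activity. In bone the same enzymes limit the hydrogen peroxide that osteoclasts form and use, and red cell precursors are rich in catalase and glutathione enzymes.

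The core of the antioxidant response element, TGACNNNGC, was searched on both strands in RefSeq promoters running from 250 bases before to 50 bases after a gene's start on GRCm38.p6. The table held 9 promoters for 7 members (Nfe2l2, Nqo1, Gclm, Txnrd1 with 3 starts, Srxn1, Sod2 and Cat), and 4 of them, from 4 members, had a match. Of all 32851 promoters of that length 4071 had one, or 12.4%. The 4 promoters with a match are printed below, because their genes fell into both of the sets that moved together across mice. The match is in capitals, and each sequence reads 5′ to 3′ along the strand of its gene.
Nfe2l2: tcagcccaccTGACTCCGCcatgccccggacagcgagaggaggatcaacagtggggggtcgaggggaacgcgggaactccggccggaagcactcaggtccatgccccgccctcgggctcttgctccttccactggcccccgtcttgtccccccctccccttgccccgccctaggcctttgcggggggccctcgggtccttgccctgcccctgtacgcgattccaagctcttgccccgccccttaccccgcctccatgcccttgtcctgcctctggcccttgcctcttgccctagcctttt
Gclm: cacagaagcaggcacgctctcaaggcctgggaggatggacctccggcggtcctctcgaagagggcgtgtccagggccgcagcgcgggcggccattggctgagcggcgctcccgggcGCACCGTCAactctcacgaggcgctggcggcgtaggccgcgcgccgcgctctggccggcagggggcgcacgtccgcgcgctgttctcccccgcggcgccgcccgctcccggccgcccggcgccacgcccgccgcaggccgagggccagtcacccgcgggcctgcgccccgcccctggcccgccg
Txnrd1: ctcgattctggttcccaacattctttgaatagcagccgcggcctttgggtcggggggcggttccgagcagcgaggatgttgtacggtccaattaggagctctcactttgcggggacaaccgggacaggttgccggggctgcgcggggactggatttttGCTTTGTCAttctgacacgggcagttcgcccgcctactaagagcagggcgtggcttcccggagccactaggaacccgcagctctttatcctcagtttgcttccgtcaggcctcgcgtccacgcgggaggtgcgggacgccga
Srxn1: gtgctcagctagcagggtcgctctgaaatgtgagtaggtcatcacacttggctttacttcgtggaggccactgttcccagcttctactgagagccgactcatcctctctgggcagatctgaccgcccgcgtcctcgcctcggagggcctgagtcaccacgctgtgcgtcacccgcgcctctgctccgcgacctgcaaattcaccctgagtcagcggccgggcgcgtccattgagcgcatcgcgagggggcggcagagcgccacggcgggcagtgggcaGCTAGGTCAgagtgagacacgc
The Nfe2l2 promoter lies at chr2:75704614-75704913 on the minus strand and carries TGACTCCGC 240 bases before the start. The Gclm promoter lies at chr3:122245307-122245606 on the plus strand and carries this core on the opposite strand, as GCACCGTCA, 134 bases before the start. The second of the 3 Txnrd1 starts, at chr10:82858956-82859255 on the plus strand, has GCTTTGTCA 92 bases before it. The Srxn1 promoter, at chr2:152105274-152105573 on the plus strand, has GCTAGGTCA 28 bases after the start. No match was found in the windows of Nqo1, Cat or Sod2 or at the other Txnrd1 starts, which says only that these letters are not in those 300 bases. Hmox1, Gclc and Sod3 were not searched. Only the letters TGACNNNGC were searched, so other forms of the element in the printed sequences were not looked for and are not marked.

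In GENCODE M21 on GRCm38 Nfe2l2 lies at chromosome 2, 75675513 to 75704641, Hmox1 at chromosome 8, 75093621 to 75100589, and Nqo1 at chromosome 8, 107388225 to 107403206. Gclc lies at chromosome 9, 77754535 to 77794485, Gclm at chromosome 3, 122245557 to 122270732, and Txnrd1 at chromosome 10, 82833951 to 82897712. Srxn1 lies at chromosome 2, 152105516 to 152111376, Sod3 at chromosome 5, 52363791 to 52371418, and Cat at chromosome 2, 103453849 to 103485160. The members are thus scattered, and no pair of them overlaps. Of the 6291 exon bases of Gclm, 296 are shared with Gm17494 on the opposite strand and 244 with the pseudogene Gm6061, and counting by strand is not stated, so a small part of the Gclm reads could belong to these. The submitters' processing notes name mm9, so these positions locate the genes and were not joined to the values.

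Transcript abundance was deposited as RPKM, in which a gene's reads are scaled by its length and by a divisor for its library, so that genes can be compared per length. The divisor was recovered from the values, and which reads it counts is not given in the sources used here. The divisor ranged from 7067512 to 19708590 reads in the control libraries and from 7838277 to 21363584 in the HLU libraries. The values of Sod3 rested on 38 to 253 reads per library, and those of the other 8 members on 184 to 5100. The 16973 features that averaged 0.5 RPKM or more were compared on log2(RPKM + 0.1) by limma, a linear model per feature whose variance borrows from the other features. With both an adjusted p under 0.1 and at least 1.2-fold required, 0 features were called (0% of those tested), whereas 1049 had an unadjusted p under 0.05, and limma with voom weights on the recovered reads also called 0, with 1136 unadjusted. At an unadjusted p under 0.05 and at least 1.2-fold, 5.87% of all features were called, 1.11% as higher and 4.76% as lower in HLU mice. The median log2 fold change of all features was -0.10, and rescaling of the libraries brought it to -0.01 (median-of-ratios) or 0.00 (quantile) and the calls from 188 higher and 808 lower to 381 and 394 or 460 and 364. Of the members 1 of 9 was called, as lower, against that background.

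In control mice the members ranked, per length, Cat, Hmox1, Gclc, Gclm, Nfe2l2, Txnrd1, Nqo1, Srxn1 and Sod3. Catalase, which breaks hydrogen peroxide into water and oxygen, had a mean of 61.6 RPKM, and Sod3, the secreted superoxide dismutase, had 2.01 RPKM. The 4 steps from Cat down to Nfe2l2 did not differ beyond their spread (exact sign-flip permutation p 0.0703 to 0.914). The steps from Nfe2l2 to Txnrd1, Txnrd1 to Nqo1, Nqo1 to Srxn1 and Srxn1 to Sod3 each held in 8 of 8 control mice (exact sign-flip permutation test of the within-mouse log2 ratio, two-sided, p = 0.00781, adjusted over 8 steps 0.0156), which is the smallest p that 8 mice allow. This p covers the spread between mice only. The ranking also hangs on the gene lengths behind the RPKM values. For Txnrd1 (4126 bases), Srxn1 (6216) and Hmox1 (3127) these differed from the exon bases of GENCODE M21 (7086, 2820 and 1751). The order under other lengths was not tested. In HLU mice the order was the same except that Nfe2l2 stood before Gclc and Gclm.

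**Figure D1:**
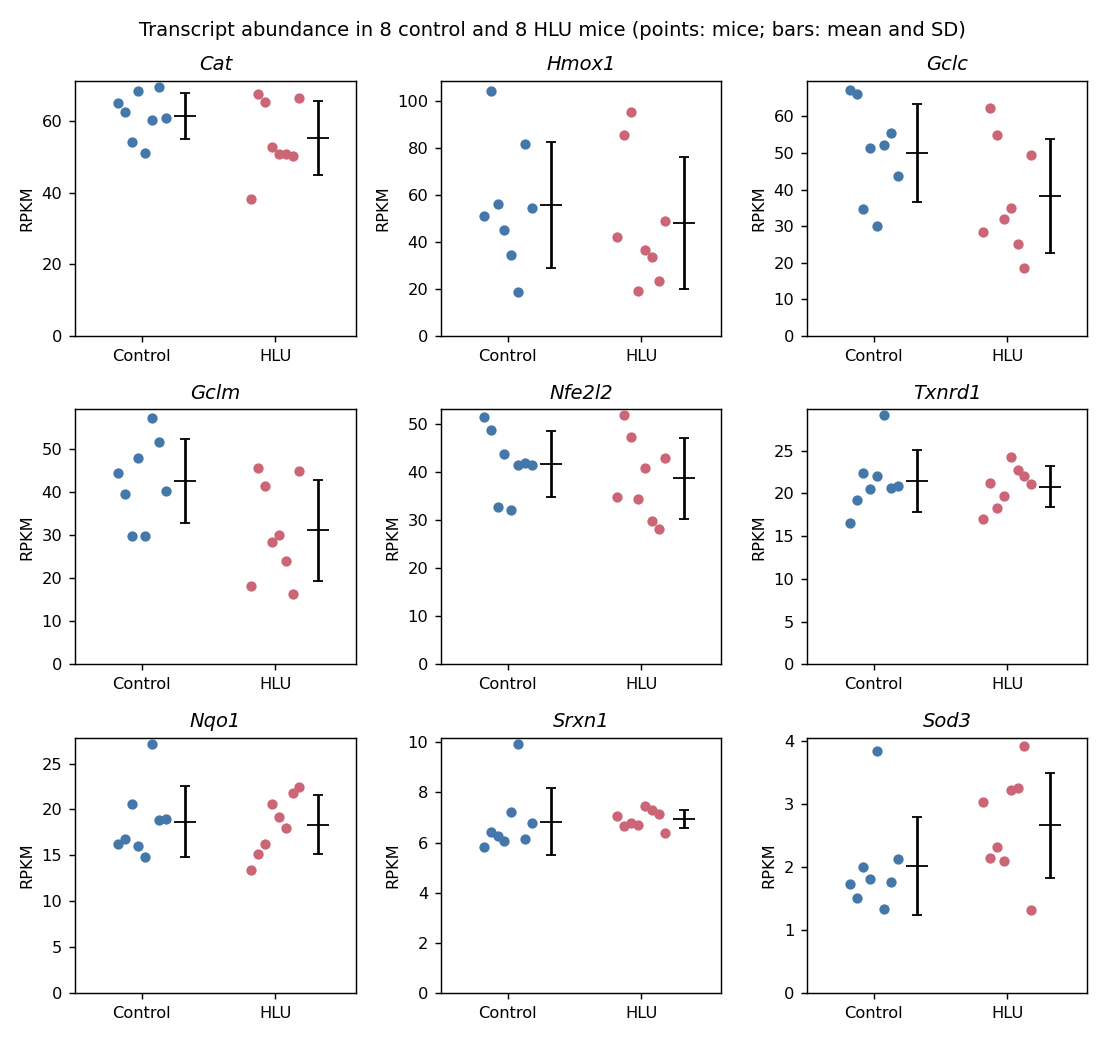
Transcript abundance (RPKM, vertical axes from 0) of the 9 members in each of 8 control and 8 HLU mice, with the mean and SD of each group as bars. The groups overlap for every member, and Control 6 stands highest for Nqo1, Txnrd1, Srxn1 and Gclm and lowest for Hmox1.

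The regulator came first. Nfe2l2 ran from 32.01 to 51.5 RPKM (median 41.7) in control mice and from 28.1 to 51.8 RPKM (median 37.8) in HLU mice. The groups overlapped almost throughout, with 2 HLU mice below and 1 above every control. The log2 fold change was -0.12 (SE 0.14, 95% interval -0.42 to 0.18, adjusted p = 0.833 by limma), and it turned to 0.019 under quantile normalization.

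Glutathione is built by a ligase of 2 subunits, the catalytic Gclc and the modifier Gclm. Gclm ran from 29.8 to 57.2 RPKM (median 42.5) in control mice and from 16.3 to 45.7 RPKM (median 29.3) in HLU mice. HLU 1, HLU 4, HLU 6 and HLU 7 lay below every control, and the other 4 lay within the control range. The log2 fold change was -0.51 (SE 0.22, 95% interval -0.98 to -0.04), with an unadjusted p = 0.0356 and an adjusted p = 0.744 by limma, and the two-sided exact permutation test over the 12870 splits of the mice gave p = 0.0482. The unadjusted limma call was lost without any one of 7 mice (Control 1, Control 4, Control 6, Control 7, HLU 1, HLU 6, HLU 7), where the log2 fold change lay between -0.50 and -0.39, and it was lost under median-of-ratios scaling (-0.42).

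Gclc ran from 30.1 to 67.2 RPKM (median 51.7) in control mice and from 18.5 to 62.2 RPKM (median 33.6) in HLU mice. HLU 1, HLU 6 and HLU 7 were below every control, as they were for Gclm. On the log2 scale HLU mice were lower, with a fold change of -0.45 (SE 0.24, 95% interval -0.96 to 0.07, adjusted p = 0.744 by limma), and the exact permutation p was 0.106. Gclc passed the unadjusted limma threshold without Control 5 (log2 fold change -0.54), HLU 2 (-0.56) or HLU 3 (-0.54). The balance of the subunits, as the log2 ratio of Gclc to Gclm RPKM, averaged 0.22 in control mice (SD 0.30, n = 8) and 0.28 in HLU mice (SD 0.19, n = 8). The difference of 0.07 had an exact permutation p of 0.604.

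Txnrd1, the cytosolic reductase that keeps thioredoxin active, ran from 16.6 to 29.2 RPKM (median 20.7) in control mice and from 16.98 to 24.2 RPKM (median 21.1) in HLU mice. The HLU mice lay wholly inside the control range. Its log2 fold change was -0.03 (SE 0.11, 95% interval -0.27 to 0.20), and the sign turned under median-of-ratios (0.059) and quantile scaling (0.11) and without Control 6 (0.032) or HLU 1 (0.0068).

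Srxn1, sulfiredoxin, repairs over-oxidized peroxiredoxins. It ran from 5.84 to 9.95 RPKM (median 6.34) in control mice and from 6.40 to 7.47 RPKM (median 6.92) in HLU mice. All 8 HLU mice were above the control median and none was above Control 6, which held the highest value. The coefficient of variation was 19.5% in control and 5.23% in HLU mice, and 7.45% in the other 7 control mice without Control 6. The log2 fold change was 0.04 (SE 0.11, 95% interval -0.18 to 0.26), and 0.12 without Control 6, where it was not past the unadjusted threshold either.

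Nqo1, which reduces quinones, ran from 14.8 to 27.1 RPKM (median 17.8) in control mice and from 13.4 to 22.4 RPKM (median 18.6) in HLU mice. Nqo1 had a log2 fold change of -0.02 (SE 0.14, 95% interval -0.31 to 0.27), and its sign turned under median-of-ratios (0.071) and quantile scaling (0.11) and without Control 3, Control 6, HLU 1, HLU 2 or HLU 3 (0.0001 to 0.058). Nqo1 and Txnrd1 thus had no direction that held under every scaling.

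Hmox1, heme oxygenase 1, splits heme into biliverdin, iron and carbon monoxide and is abundant in macrophages that clear red cells. It was the most variable member, from 18.7 to 104.3 RPKM (median 52.8) in control mice and from 19.2 to 95.6 RPKM (median 39.4) in HLU mice. The ranges coincided, and the coefficients of variation were 47.9% and 58.0%, against a median of 26.0% over the 12084 features that averaged 2 RPKM or more. For Hmox1 the log2 fold change was -0.26 (SE 0.36, 95% interval -1.02 to 0.51, adjusted p = 0.858 by limma).

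Cat ran from 51.3 to 69.7 RPKM (median 61.9) in control mice and from 38.3 to 67.8 RPKM (median 52.0) in HLU mice. It was the steadiest member in control mice, with a coefficient of variation of 10.4%, and 4 HLU mice were below every control. The log2 fold change was -0.17 (SE 0.12, 95% interval -0.42 to 0.09, adjusted p = 0.760 by limma), and the exact permutation p was 0.161.

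Sod3 was the member with the highest HLU to control ratio, at 1.31-fold. It ran from 1.33 to 3.83 RPKM (median 1.78) in control mice and from 1.31 to 3.91 RPKM (median 2.67) in HLU mice. Of the HLU mice 7 were above the control median, while HLU 8 had the lowest value of all 16. The log2 fold change was 0.39 (SE 0.22, 95% interval -0.09 to 0.86, adjusted p = 0.744 by limma), with an exact permutation p of 0.116. Sod3 passed the unadjusted limma threshold without Control 5 (log2 fold change 0.52) or HLU 8 (0.51) and under quantile normalization (0.47).

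The rest of the pathway was read from 8 lists of 68 genes, of which 59 passed the filter. Of these 20 were above 0 and 39 below 0 on the log2 scale, and 1 was past the unadjusted threshold in each direction, against 1.11% and 4.76% of all features. The median log2 fold change was -0.10, as over all features, and -0.12 over the 9 members. Gstm2, a glutathione transferase, was higher in HLU mice (10.6 ± 3.66 RPKM in control and 16.7 ± 4.92 in HLU, SD, n = 8 each, log2 fold change 0.67, SE 0.23, adjusted p = 0.744 by limma). With the erythroid and granulocyte scores described further on as covariates it had 0.50 and was no longer past the threshold, and it belongs to a family of close copies among which reads can be split. Txn1, the thioredoxin that Txnrd1 reduces, was lower (156.7 ± 23.6 RPKM in control and 125.4 ± 30.5 in HLU, log2 fold change -0.35, SE 0.15, adjusted p = 0.744 by limma), and lost its unadjusted call under median-of-ratios (-0.25), quantile normalization (-0.18) and the same covariates (-0.16), and without any one of Control 4, Control 6, Control 7, Control 8, HLU 1, HLU 3, HLU 6 or HLU 7 (-0.34 to -0.26).

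Among the regulators of Nrf2 5 of 9 genes were above 0, with a median of 0.02. Keap1, its inhibitor, had 6.01 ± 1.68 RPKM in control and 5.97 ± 0.80 in HLU mice (log2 fold change 0.03, SE 0.16), and its sign turned without any one of 4 mice (-0.041 to -0.0076 without Control 1, Control 2, Control 4 or HLU 7). With the erythroid and granulocyte scores as covariates Keap1 had 0.34 and passed the unadjusted threshold. Cul3, the ligase scaffold that Keap1 recruits, was the most abundant of the list (36.8 and 42.0 RPKM, 0.19, SE 0.14). Bach1, the repressor of Hmox1, had a log2 fold change of -0.13 (SE 0.15).

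In the thioredoxin and peroxiredoxin list 9 of 11 genes were below 0, with a median of -0.20, and Prdx1 had -0.14 (SE 0.12). All 5 genes of the NADPH supply list (median -0.14) and both of the copper-zinc superoxide dismutase list (median -0.21) were below 0. The glutathione list had 8 of 14 below 0 and a median of -0.03. Its most abundant gene, Gpx1, the cytosolic glutathione peroxidase, had 519.4 ± 278.9 RPKM in control and 348.9 ± 145.2 in HLU mice (log2 fold change -0.54, SE 0.32, adjusted p = 0.747 by limma), and it passed the unadjusted threshold without Control 4 (-0.68) and turned to 0.30 with the erythroid and granulocyte scores as covariates. Sod1, the cytosolic superoxide dismutase, had -0.12 (SE 0.14), with the sign turned under quantile normalization (0.058). In the NADPH supply, heme and iron, detoxification and NADPH oxidase lists no gene was past the unadjusted threshold, and the most abundant genes, G6pdx, Fth1, Nqo2 and Ncf1, had log2 fold changes of -0.14, -0.01, 0.03 and -0.10, of which Fth1 turned under median-of-ratios (0.087) and quantile normalization (0.17) and Ncf1 under the latter (0.023).

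**Figure D2:**
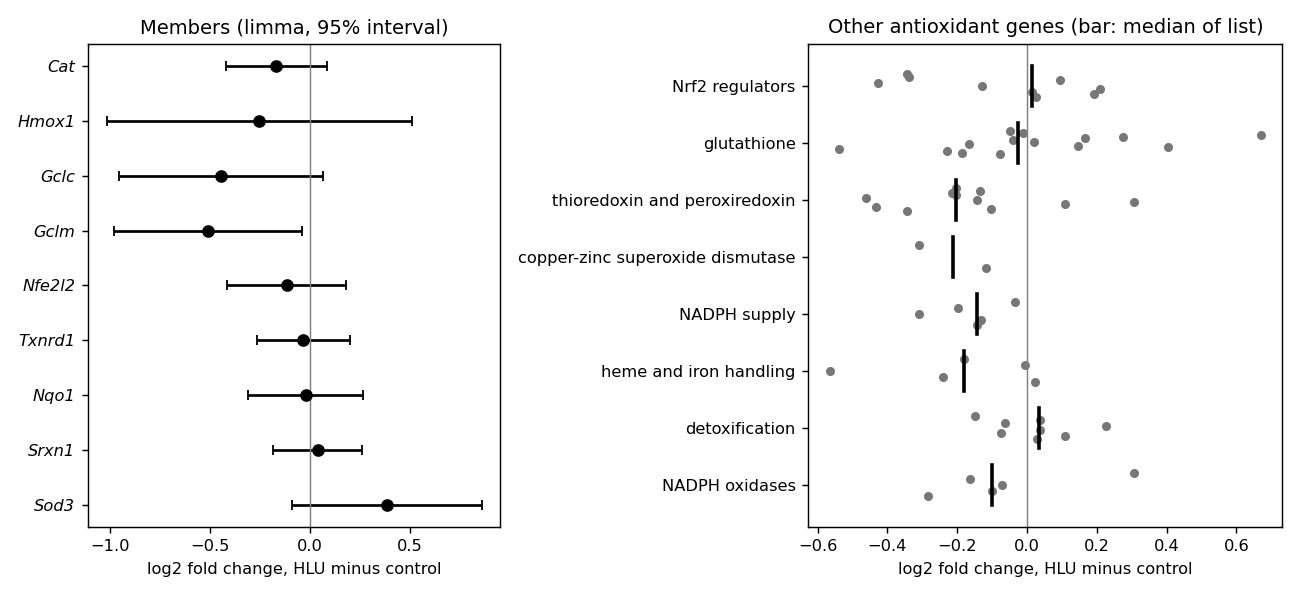
Left, log2 fold change (HLU minus control) of each member from limma, with its 95% interval. Right, the log2 fold change of each gene of the 8 other antioxidant lists as points with the list's median as a bar. The interval of Gclm alone lies wholly on one side of 0, and the list medians lie between -0.21 and 0.03.

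The covariation between mice was measured on log2(RPKM + 0.1) after the mean of each group had been taken away, so that a group difference adds nothing to it. All 36 pairs of members were tested over the 16 mice with 100000 permutations within groups, and 15 had an adjusted p under 0.05 over the 36, 10 of them positive and 5 negative. The median r of the pairs was 0.01, against 0.04 over all pairs of kept features. Of the 36 pairs 10 had r above 0.5 and 7 had r below -0.5, where 16.9% and 11.8% of all pairs of kept features did.

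Nfe2l2 and Gclc moved together most closely (r = 0.97, rho = 0.95, permutation p = 1e-05 for both, the smallest that the permutations can give, adjusted p = 0.00036). The relation was alike in control (r = 0.97) and HLU mice (r = 0.97) and without the 2 mice farthest from the median (r = 0.96). The mice with the highest Nfe2l2, Control 1 and HLU 2 at 51.5 and 51.8 RPKM, had Gclc at 67.2 and 62.2 RPKM, and HLU 7 with the lowest, at 28.1 RPKM, had 18.5 RPKM. Gclc followed Gclm (r = 0.88, rho = 0.88, permutation p = 0.00014 and 0.00022, adjusted p = 0.00252) and Gclm followed Cat (r = 0.86, rho = 0.89, permutation p = 0.00021 and 5e-05, adjusted p = 0.00252). The remaining pairs among Nfe2l2, Gclc, Gclm and Cat had r between 0.71 and 0.80 with adjusted p up to 0.0178, so that these 4 genes formed a set. Only the pair of Nfe2l2 and Cat left the threshold when a mouse was left out, without Control 5 (r = 0.67, adjusted p = 0.0546).

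Txnrd1 and Srxn1 (r = 0.75, rho = 0.62, permutation p = 0.00368 and 0.00892, adjusted p = 0.0166) and Nqo1 and Txnrd1 (r = 0.68, rho = 0.51, permutation p = 0.00761 and 0.0524, adjusted p = 0.0274) made up a further set, although Nqo1 and Srxn1 themselves were not past the threshold (r = 0.47, adjusted p = 0.194). Both relations rested on Control 6, the mouse with the highest value of all 3 genes, at 29.2 RPKM for Txnrd1, 9.95 for Srxn1 and 27.1 for Nqo1. Txnrd1 and Srxn1 had r = 0.89 in control and 0.39 in HLU mice, and Nqo1 and Txnrd1 had 0.77 and 0.57. Without Control 6 r was 0.48 for both pairs, with adjusted p of 0.129 and 0.148. Nqo1 and Txnrd1 also left the threshold without HLU 1 (r = 0.62, adjusted p = 0.0717). Leaving out the 2 mice farthest in Txnrd1 gave r = 0.33 with Srxn1, and leaving out the 2 farthest in Nqo1 gave r = 0.37 with Txnrd1. Nfe2l2 itself had r of -0.31 with Txnrd1, -0.26 with Srxn1 and -0.22 with Nqo1, none past the threshold.

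Sod3 ran opposite to the first set. Its r was -0.75 with Gclm (rho = -0.69, permutation p = 0.00085 and 0.00692, adjusted p = 0.00612), -0.75 with Gclc (rho = -0.79, permutation p = 0.00135 and 0.00125, adjusted p = 0.00705), and -0.64 with both Nfe2l2 and Cat (adjusted p = 0.0351 each). The relations with Gclm (r = -0.72 in control and -0.79 in HLU mice) and Gclc (-0.78 and -0.74) held without any one mouse and without the 2 mice farthest from the median (r = -0.72 and -0.68). That with Nfe2l2 left the threshold without Control 2, Control 5, HLU 1, HLU 6 or HLU 7 (r -0.63 to -0.56), and that with Cat without Control 5, HLU 2, HLU 6 or HLU 8 (r -0.64 to -0.56). Hmox1 followed Gclc (r = 0.62) and Nfe2l2 (r = 0.61) and ran opposite to Srxn1 (r = -0.58), with permutation p of 0.0151 to 0.0175 and adjusted p of 0.0417 to 0.0421. The r was 0.34, 0.31 and -0.78 in control mice and 0.82, 0.83 and -0.35 in HLU mice. These relations were weak. Both positive ones left the threshold without any one of Control 2, Control 5, HLU 1, HLU 2, HLU 3, HLU 5, HLU 6, HLU 7 or HLU 8, as well as Control 8 for Nfe2l2 and Control 7 for Gclc (r 0.53 to 0.63). The negative one left it without any one of Control 3, Control 5 to Control 8, HLU 1 to HLU 3 or HLU 6 to HLU 8 (r -0.63 to -0.32, the last without Control 6).

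**Figure D3:**
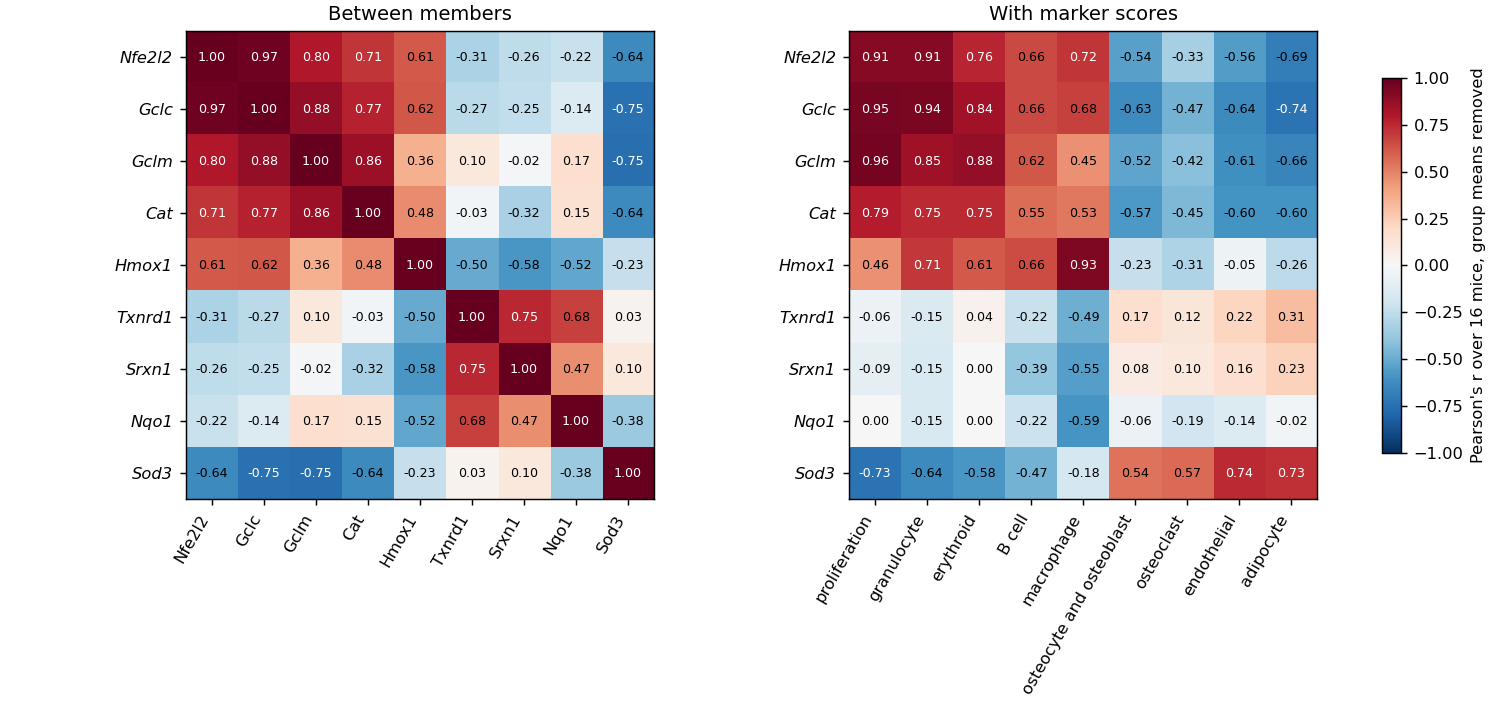
Pearson's r over 16 mice, after removal of group means, between the 9 members (left) and between each member and 9 scores of marker genes (right). Red cells are positive and blue cells negative. Nfe2l2, Gclc, Gclm and Cat form a red block, with r from 0.71 to 0.97, and Sod3 is blue against all of them.

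The members were then set beside the cells and processes left in the shaft. A score for each was the mean, over its genes, of log2 values centred on the mean of all mice, and 9 scores against 9 members gave 81 relations, of which 36 had an adjusted p under 0.05, 23 positive and 13 negative. The count ran from 31 to 46 over median-of-ratios scaling, a pseudocount of 1 and the fit without the 2 smallest libraries. How often other kept features follow these scores was not tested, so this count is not shown to be particular to the members. Among all pairs of kept features 16.9% had r above 0.5 and 11.8% below -0.5. The bone markers were present, with Ibsp the most abundant at 522.8 ± 190.3 RPKM in control and 588.5 ± 141.4 in HLU mice, and Dmp1 at 112.2 ± 44.2 and 116.6 ± 33.2. Marrow markers were present too. The 8 granulocyte markers summed to between 17990 and 38540 RPKM in control and 12800 and 45510 in HLU mice, the 11 erythroid markers to between 1096 and 2219 and between 553.3 and 2039 RPKM, and the 10 macrophage markers to between 165.9 and 347.1 and between 121.8 and 352.1 RPKM. No marker that passed the filter was at 0 in any mouse. The muscle list was not analysed here.

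The first set tracked the proliferation, erythroid and granulocyte genes. Gclm had r = 0.96 with the 8 proliferation genes (rho = 0.96, permutation p = 1e-05, adjusted p = 0.000202), and 0.88 with the erythroid markers (rho = 0.84, permutation p = 0.00013 and 0.00069, adjusted p = 0.0015). Gclc had r = 0.95 with the proliferation genes and 0.94 with the granulocyte markers, and Nfe2l2 had 0.91 with each, all with adjusted p of at most 0.000405. Within the control mice these 6 relations had r of 0.77 to 0.95, and within the HLU mice 0.91 to 0.98. Cat had r of 0.75 to 0.79 with the same 3 scores. Each of these relations with the score named in it held without any one mouse where that was run, namely Gclm with both scores, Gclc and Nfe2l2 with the granulocyte markers and Cat with the proliferation genes. The B cell markers were past the threshold with Nfe2l2, Gclc (both r = 0.66) and Gclm (r = 0.62). Every gene of the set ran opposite to the adipocyte markers (r -0.74 to -0.60, past the threshold). Also negative and past it were the endothelial markers with Gclc, Gclm and Cat (r -0.64 to -0.60). So were the osteocyte and osteoblast markers with Gclc (r = -0.63) and Cat (r = -0.57).

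None of the scores differed between groups by the exact test, while the erythroid, B cell and proliferation scores had differences near that of Gclm. In HLU mice the erythroid score was lower by 0.50 on the log2 scale (exact permutation p = 0.0881), with 11 of 11 markers below 0 and 2 past the unadjusted threshold, and the proliferation score by 0.46 (exact permutation p = 0.102), with 8 of 8 genes below 0. The B cell score was lower by 0.51 (exact permutation p = 0.0869) and the granulocyte score by 0.12 (exact permutation p = 0.622), while the osteocyte and osteoblast score was higher by 0.22 (exact permutation p = 0.349). At the unadjusted threshold 1 B cell marker was called as lower, and 1 osteocyte and osteoblast marker and 1 adipocyte marker as higher. Of all features 4.76% were called as lower and 1.11% as higher, and their median log2 fold change was -0.10. The genes of a list are not separate tests, so counts below or above 0 describe the list only. With the erythroid and granulocyte scores as covariates in limma the log2 fold change of Gclm was -0.19, no longer past the unadjusted threshold, and that of Gclc was -0.40, now past it. The part of the remaining marrow cells in the member differences was not tested beyond these fits.

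Hmox1 moved with the macrophage markers (r = 0.93, rho = 0.87, permutation p = 2e-05 and 4e-05, adjusted p = 0.000324). The relation was close in control (r = 0.89) and HLU mice (r = 0.97) and without the 2 mice farthest from the median (r = 0.91). Hmox1 was also past the threshold with the granulocyte (r = 0.71), B cell (r = 0.66) and erythroid markers (r = 0.61, adjusted permutation p 0.0151 to 0.0420). Of the first set Nfe2l2 (r = 0.72) and Gclc (r = 0.68), but not Gclm or Cat, were past it with the macrophage markers (adjusted permutation p = 0.0185 and 0.0272). The macrophage score was lower by 0.19 in HLU mice (exact permutation p = 0.307), with 10 of 10 markers below 0, and with it as a covariate the log2 fold change of Hmox1 was 0.13 in place of -0.26. Srxn1 (r = -0.55, rho = -0.52, permutation p = 0.0127 and 0.0342, adjusted p of r = 0.0348) and Nqo1 (r = -0.59, rho = -0.52, permutation p = 0.0194 and 0.0470, adjusted p of r = 0.0440) ran opposite to the macrophage score. On the RPKM values without rescaling Txnrd1 was past the threshold with none of the 9 scores (macrophage r = -0.49, permutation p = 0.0513, adjusted p = 0.0944). By rank neither Srxn1 nor Nqo1 was past the threshold with the macrophage score (adjusted permutation p of rho 0.0676 and 0.0827). Control 6 had the lowest macrophage score of the control mice, at -0.49. Srxn1 had r = -0.92 in control and -0.25 in HLU mice, Nqo1 had -0.61 and -0.60, and Txnrd1 had -0.86 and -0.19. Without the 2 mice farthest in the macrophage score Txnrd1 had -0.70. Under median-of-ratios scaling r with this score was -0.82 for Txnrd1, -0.75 for Nqo1 and -0.71 for Srxn1, so the contrast between them depended on the scaling.

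Sod3 followed the endothelial (r = 0.74, rho = 0.80, permutation p = 0.00118 and 0.00066, adjusted p = 0.00876) and adipocyte markers (r = 0.73, rho = 0.76, permutation p = 0.00152 and 0.00132, adjusted p = 0.0103) and ran opposite to the proliferation genes (r = -0.73, adjusted p = 0.0104). Both positive relations were present in control (r = 0.65 and 0.72) and HLU mice (r = 0.82 and 0.74). The endothelial score was higher by 0.15 in HLU mice (exact permutation p = 0.261) with 7 of 7 markers above 0, and the adipocyte score by 0.38 (exact permutation p = 0.232) with 5 of 5 above 0. With the osteocyte and osteoblast markers r was 0.54 (permutation p = 0.0293, adjusted p = 0.0598), not past the threshold, while rho was 0.73 (permutation p = 0.00218, adjusted p = 0.00981), past it. The osteoclast markers gave the same pattern (r = 0.57, adjusted permutation p = 0.0598, and rho = 0.66, adjusted permutation p = 0.0262). Against the granulocyte markers Sod3 was past the threshold, with r = -0.64 (adjusted permutation p = 0.0323).

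**Figure D4:**
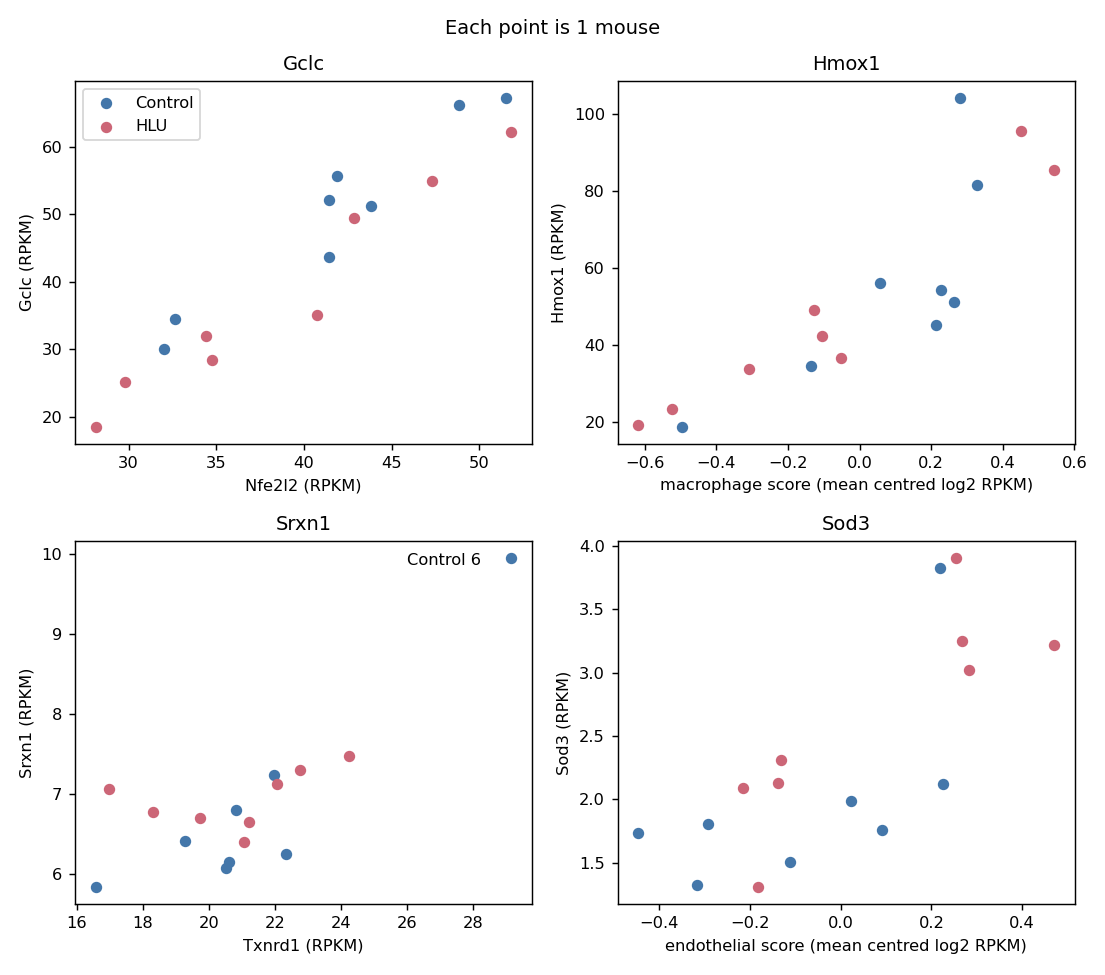
Each point is 1 mouse (blue, control; red, HLU). The panels plot Gclc against Nfe2l2, Srxn1 against Txnrd1 (RPKM on both axes), Hmox1 RPKM against the macrophage score and Sod3 RPKM against the endothelial score (mean centred log2 RPKM). Control 6 lies apart from the other 15 mice in the panel of Srxn1 and Txnrd1.

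A property of the libraries moved with the first set as well. The share of the divisor that fell on the 16973 kept features averaged 88.4% in control mice (SD 4.32, n = 8) and 84.6% in HLU mice (SD 5.32, n = 8), with an exact permutation p of 0.136. It correlated with Nfe2l2 (r = 0.96, rho = 0.96), Gclc (r = 0.94, rho = 0.91), Gclm (r = 0.85, rho = 0.80) and Cat (r = 0.72, rho = 0.85) and inversely with Sod3 (r = -0.69, rho = -0.58), with permutation p of 1e-05 to 0.00501 for r and 2e-05 to 0.0282 for rho, and adjusted p of at most 0.018 over 18 relations. Without the 2 mice farthest from the median, HLU 6 and HLU 7, these r were 0.94, 0.90, 0.80, 0.77 and -0.59. The log2 number of reads in the divisor had no relation past the threshold with any member (adjusted p 0.594 to 0.979). The part of this share in the relations between members was not tested. Under median-of-ratios scaling the r of Nfe2l2 and Gclc was 0.96, whereas Hmox1 left the threshold with Nfe2l2 (r = 0.54, adjusted p = 0.0761) and with Gclc (r = 0.58, adjusted p = 0.054).

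The features most like each member, up to 3 for each, across the 16 mice, among 11397 that have a unique symbol and average 2 RPKM or more, are given as a description. For Gclm they were Slc25a37, the mitochondrial iron importer of erythroid cells, Rhag, a red cell membrane protein, and Sowaha, with r of 0.98 to 0.99. For Gclc they included Rrm1, a subunit of ribonucleotide reductase (r = 0.99), and the replication kinase Cdc7 (r = 0.98). For Nfe2l2 they were 4632419I22Rik, the DNA glycosylase Neil3 and Pwwp2a, with r of 0.98, and for Cat Mcph1, Gm13232 and F930017D23Rik, with r of 0.93 to 0.94. Rhag is itself among the erythroid markers.

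For Hmox1 the most alike features were Cd5l, a secreted macrophage protein, Mif4gd and Ezr, with r of 0.91 to 0.95. For Sod3 they were the matrix gene Col6a1, the metalloproteinase inhibitor Timp1 and Gm21685, with r of 0.88 to 0.92. Nqo1 was most like Prdx3, the mitochondrial peroxiredoxin, at r = 0.84, followed by Rpl36a-ps1 and Gstm5. Txnrd1 was most like Eif2s3x (r = 0.83), Rpl31-ps8 and Gm9843, and Srxn1 like Gm15591 (r = 0.90), Fam132b and Fabp5.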

How the data were processed

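RNA of marrow-flushed femoral cortical bone was sequenced from 8 control and 8 HLU mice, each number in the sample labels being a separate mouse. The authors prepared TruSeq libraries, sequenced them with 8 libraries per lane, and deposited RPKM values per mouse, 1 file each. Which library ran in which lane is not given in the sources used here. The submitters' processing notes name TopHat2 and mm9, without versions, and the counting tool and the annotation are not given in the sources used here. The authors compared the groups with DESeq2. Since RPKM values are not counts, limma 3.58.1 in R 4.3.3 was used here on log2(RPKM + 0.1), with a variance trend over abundance, for features that averaged 0.5 RPKM or more (16973 of 36829), with Benjamini-Hochberg adjustment over all of them. A fold change on this scale understates the change of low genes. A call required at least 1.2-fold together with p under 0.05 when unadjusted and under 0.1 when adjusted.

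The divisor of each library and the length of each feature were recovered from the steps in the RPKM values, and all 16 values came out as whole reads, within 0.01 of a read, for 16973 of 16973 features. These reads gave the depths and a limma-voom alternative. The recovered lengths of Hmox1 (3127 bases) and Srxn1 (6216) exceed the exon lengths of GENCODE M21 (1751 and 2820), and that of Txnrd1 (4126) is below it (7086), so the annotation differed. Reads are not independent molecules, so read numbers cover counting error only. The recovery of reads and the limma comparison were tested on simulated data. The two-sided exact permutation test of single values ran over 12870 splits, with a smallest p of 0.000155, and within-group correlations over the 40320 orders of 8 mice. Python 3.11.15, numpy 2.4.6, scipy 1.17.1, pandas 2.3.3 and matplotlib 3.10.9 were used.

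The members, the gene lists and the tests were chosen with earlier results of these data known. The text names all members, the 3 features most like each (1 is not reported here), the pathway genes past the unadjusted threshold, Keap1, Bach1, Sod1, Gpx1, Prdx1, Txn1 and the most abundant gene of each pathway list. Marker genes were named where they check the tissue. Alternatives were the pseudocount (1 and 0.01), no filter or one at a mean of 2 RPKM, median-of-ratios and quantile scaling, the replicate number as a block, no variance trend, marker scores as covariates, voom, and leaving out single mice or the 2 smallest libraries. The leave-one-out and pseudocount values of the Gclc to Gclm balance, the repeats of the marker score relations without single mice or the 2 smallest libraries, and the spread of Srxn1 without Control 6, were chosen after seeing the data.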

Additional observations from a re-analysis of the deposited data

Results flagged for a closer look

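Among the 18 groups of 8 values (9 members in each condition), 4 held a highest or lowest mouse whose gap to its nearest neighbour was, as a share of the group's range, over Dixon's 95% critical value. Chance alone marks about 1 in 20 groups of normally distributed values. The groups here share the same mice and are not independent, so this rate cannot be set against the 4 marked. Control 6 was the highest control mouse for Nqo1 (27.1 RPKM, gap 0.527 of the range), Txnrd1 (29.2 RPKM, 0.543) and Srxn1 (9.95 RPKM, 0.660). Control 5 was the highest control mouse for Sod3 (3.83 RPKM, 0.683). Their parts in the group comparisons and in the relations between members are given with those results.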

How the results depend on the processing

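The labels number the mice from 1 to 8 in both groups, but as a rule same-numbered mice did not deviate together (r of their deviations from the group means -0.17 to 0.51, and 1 of 8 mice, number 4, was most like the mouse of its own number). They were therefore not paired in the main fit. Whether same-numbered mice shared a cage, day or lane is not given in the sources used here, and these r cannot show it. With the replicate number as a block 0 members and 4 pathway genes passed the unadjusted threshold in place of 1 and 2, Gclm had -0.51 and was no longer past it, and the calls over all features were 199 higher and 840 lower. Over all features 188 were called as higher, against 391 without the filter on low values, 106 at a minimum mean of 2 RPKM, 381 under median-of-ratios, 460 under quantile normalization, 535 with the erythroid and granulocyte scores as covariates and 108 without the 2 smallest libraries, and 808 as lower, against 394 and 364 under these scalings, in this order. Of the calls 18.9% were higher, against 49.2% and 55.8% under them. At the adjusted threshold 1 feature was called without the filter and 1 without the variance trend. The count of members was 0 under median-of-ratios, with the macrophage score and without the 2 smallest libraries, and 2 (Gclm and Sod3) under quantile normalization. The pathway lists had 5 calls with the erythroid and granulocyte scores and 4 without the 2 smallest libraries. Leaving out each mouse in turn gave 117 to 363 higher, 471 to 1385 lower and 0 to 1 adjusted calls, 0 to 3 members, 1 to 5 pathway genes, 9 to 16 of 36 pairs (main 15, lowest without Control 5), 21 to 38 of 81 marker relations (main 36, lowest without HLU 2 or HLU 7) and a Gclc to Gclm difference of 0.02 to 0.14. Signs turned under quantile normalization for Nfe2l2 (0.019), Nqo1 (0.11), Txnrd1 (0.11), Sod1 (0.058), Fth1 (0.17) and Ncf1 (0.023), and under median-of-ratios for Nqo1 (0.071), Txnrd1 (0.059) and Fth1 (0.087). With the erythroid and granulocyte scores they turned for Nqo1 (0.15), Txnrd1 (0.12), Cul3 (-0.094), Gpx1 (0.30), Fth1 (0.11), Nqo2 (-0.24) and Ncf1 (0.071). With the macrophage score they turned for Hmox1 (0.13), Srxn1 (-0.014), Keap1 (-0.0042), G6pdx (0.041), Fth1 (0.050) and Ncf1 (0.083), and without the 2 smallest libraries for Keap1 (-0.0064) and Fth1 (0.040). Leaving out single mice turned Nqo1 (-0.066 to 0.058), Txnrd1 (-0.084 to 0.032), Keap1 (-0.041 to 0.094), Fth1 (-0.048 to 0.053), Nqo2 (-0.034 to 0.11) and Ncf1 (-0.22 to 0.0058). Gclm kept its direction under all alternatives run but lost its unadjusted limma call also with the macrophage score (-0.40) and without the 2 smallest libraries (-0.53). The cause of these changes was not tested. Depth limited Sod3 most, with 38 reads in its lowest library.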
